A study of Mus musculus with 5 samples.

Results

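The Zbtb genes encode transcription factors that carry a BTB domain at the amino end and C2H2 zinc fingers towards the carboxyl end. They were taken here as the protein-coding RefSeq genes on mm10 whose symbol begins with Zbtb and a digit, which gave 41 of 21883 protein-coding genes. H3K36me3, the trimethylation of lysine 36 of histone H3, was mapped by ChIP sequencing in mTEClo of wild-type (WT) B6 mice, the medullary thymic epithelial cells sorted as EpCAM+, UEA-1+, Ly51lo and CD80lo. One antibody was used for 2 ChIP libraries, of series 1 and series 2. Beside them stood 3 inputs that had seen no antibody, 2 of series 1 and 1 of series 2. All came from the same strain, genotype and sorted population, with no treatment compared. The labels say that cells were sorted from individual mice but tie no mouse to a library, and the age of the mice is not given in the sources used here. The spread between the series may therefore be biological or technical.

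The BTB domain lets these proteins form dimers and recruit corepressors such as NCOR and BCOR, and the zinc fingers bind DNA, so that many members act as repressors. Several are known from thymus and blood: Zbtb7b (ThPOK) directs T cells to the CD4 lineage, Zbtb16 (PLZF) directs innate-like T cells, Zbtb1 is needed for lymphoid development, and Zbtb46 marks classical dendritic cells and their precursors. H3K36me3 is laid down behind elongating RNA polymerase II, and is usually low at the promoter and higher in the body and towards the 3′ end of a transcribed gene.

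Broad peaks were listed for each ChIP library separately, 7231 in series 1 (median width 483 bp) and 10243 in series 2 (median width 222 bp). In series 2, 68.7% of peaks were at most 10 bp wider than the narrowest one of 216 bp, against 3.84% in series 1. Neither list gives read counts, so depth is unknown and the absence of a peak means only that none was detected. In such bulk libraries, fewer cells with the mark and less of it per cell cannot be told apart. Series 1 had peaks in 4 and series 2 in 3 of 12 markers of medullary epithelium. Krt5, the basal keratin, and Itga6 were marked in both, Ltbr and Trp63 in series 1 alone and Relb in series 2 alone. Epcam, Foxn1, Krt8, Krt14, Krt17, Cldn3 and Cldn4 had no peak in either. Of 34 markers of thymocytes, B cells, myeloid and dendritic cells, fibroblasts and endothelium, series 1 marked 3 (8.82%) and series 2 marked 7 (20.6%). Ebf1, of B cells, was marked in both. Itgam and Pdgfrb were marked in series 1 alone, and Arpp21, Satb1, Cd79b, Pax5, Csf1r and Flt3 in series 2 alone.

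H3K36me3 peaks were found in 13 of the 41 Zbtb genes, each over a small stretch, and the family was marked about as often as protein-coding genes at large. In series 1, 8 members (19.5%) held at least 1 bp of a peak, against 16.3% of all protein-coding genes. In series 2, 7 members (17.1%) did, against 19.5% of all protein-coding genes. In either series 13 members (31.7%) were hit, against 27.4% of all, and in both series 2 members (4.88%), against 8.42% of all. These shares lie near the background in each case. The 8 members of series 1 were Zbtb7a, Zbtb10, Zbtb11, Zbtb16, Zbtb20, Zbtb21, Zbtb44 and Zbtb46. The 7 of series 2 were Zbtb2, Zbtb7c, Zbtb20, Zbtb39, Zbtb41, Zbtb44 and Zbtb49. With 1 peak list per series there is no replicate test, and the counts are given as a description. With either library left out, only the other list's own count of 7 or 8 members remains.

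**Figure D1:**
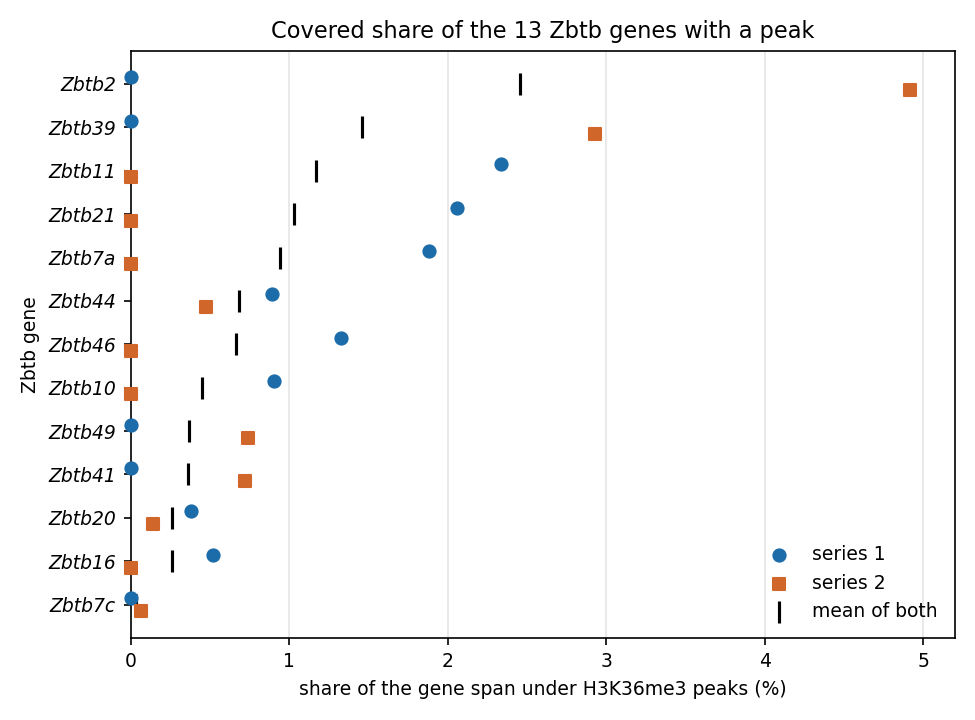
Share of the annotated span under H3K36me3 peaks (x axis, percent) for the 13 Zbtb genes with a peak, in series 1 (circles) and series 2 (squares), with the mean of both as a bar. No member exceeded 4.92%, and 11 of the 13 stand at 0 in one of the series; Zbtb20 and Zbtb44 are above 0 in both.

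Zbtb20, a repressor known from liver and brain development, was one of the members marked in both series. The longest member at 758.7 kb, it spans chromosome 16 from 42875689 to 43634392 (mm10). Series 1 held 3 peaks in it, over 0.38% of the span, and series 2 held 1 peak, over 0.141% (0.261% ± 0.17, SD, n = 2). The series 1 peaks were 391, 1112 and 1383 bp wide with scores of 22, 24 and 13, and the series 2 peak was 1067 bp wide with a score of 12. No base was shared: the nearest peaks of the series lay 74.9 kb apart. Zbtb44, on chromosome 9 from 31029720 to 31075885, was the other, with 0.895% of its 46.17 kb covered in series 1 and 0.474% in series 2 (0.684% ± 0.297, SD, n = 2). Its series 1 peak was 413 bp wide with a score of 19, and its series 2 peak was 219 bp wide with a score of 31. They lay 10.9 kb apart. Neither member thus had a base marked in both lists. Of the 1842 protein-coding genes hit in both series, 17.6% had at least 1 shared base, and 2 members are too few to be told apart from that share.

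The 2 largest covered shares belonged to members hit in series 2 alone. Zbtb2, on chromosome 10 from 4367074 to 4388108, encodes a protein that binds unmethylated CpG island promoters in mouse embryonic stem cells. It had 4.92% of its 21.04 kb under a single peak of 1035 bp in series 2 and no peak in series 1. That peak was wider than 96.6% of series 2 peaks, but its score of 16 was higher than those of 47.3% of them. Zbtb39, on chromosome 10 from 127739530 to 127747349, had 2.93% of its 7.82 kb under a peak of 229 bp with a score of 18, again in series 2 only. It was the shortest member with a peak. Zbtb49 and Zbtb41 had 0.738% and 0.722% of their spans under peaks of 227 and 224 bp. Zbtb7c, a close relative of Zbtb7a and Zbtb7b, had 0.0661% of its 328.4 kb under a peak of 217 bp.

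Members marked in series 1 alone included those with the highest scores. Zbtb11, which is needed for neutrophil development in zebrafish, lies on chromosome 16 from 55971437 to 56008913 and had 2.34% of its span under a peak of 876 bp. With a score of 50, that peak ranked above 93.7% of series 1 peaks, and series 2 held none in the gene. Zbtb10, on chromosome 3 from 9250567 to 9285333, had a peak of 315 bp with a score of 46, above 92.0% of series 1 peaks, over 0.906% of its span. Zbtb21 had 2.06% of its span covered and Zbtb7a 1.88%, by peaks of 347 and 320 bp that both scored 23. Zbtb7a, also called LRF, sets the B or T cell fate of lymphoid progenitors and silences fetal globin. Its span is on chromosome 10 from 81135225 to 81152222.

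Zbtb16 and Zbtb46, known from T cells and dendritic cells, were hit by series 1 peaks and by none of series 2. Zbtb46, on chromosome 2 from 181371009 to 181493262, had 1.33% of its span covered by 2 peaks of 986 and 638 bp, with scores of 15 and 33. Both peaks also lie within the span of Zgpat, a coding gene that overlaps its 3′ end, and the lists cannot assign them to either. They were the sole member peaks to touch another annotated gene: 16 of 18 touched none. Zbtb16, on chromosome 9 from 48651797 to 48836225, had 0.522% of its 184.4 kb under a peak of 963 bp with a score of 28. Zbtb7b and Zbtb1 had no peak in either series, and the nearest peak of either series lay 41.9 kb from Zbtb7b and 149 kb from Zbtb1. Beside these values, thymocyte markers with a peak numbered 0 of 16 in series 1 and 2 of 16 in series 2. Myeloid and dendritic markers numbered 1 of 6 in series 1 (Itgam) and 2 of 6 in series 2 (Csf1r and Flt3). The part of other cells in the peaks of Zbtb16 and Zbtb46 was not tested.

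Marked members were longer than unmarked ones, though their ranges overlap, and protein-coding genes in general showed the same order. Members with a peak in either series had a median length of 34.8 kb, and the 28 without one had a median of 14.8 kb. Of 13 members up to 11.66 kb long, series 1 marked none and series 2 marked 1. Shares of all protein-coding genes of that length were 2.32% and 2.92%. Of 20 members between 11.7 and 35.84 kb, 3 had a peak in each series (15.0%), against 15.4% of all such genes in series 1 and 17.1% in series 2. Of 8 longer members, series 1 marked 5 (62.5%), against 35.9% of all genes of that length, and series 2 marked 3 (37.5%), against 43.9%. The series thus stood on opposite sides of the background among long members, with 8 genes behind each share. The 4 longest, Zbtb20, Zbtb7c, Zbtb16 and Zbtb46, hold 66.0% of the family's 2.11 Mb, and each had a peak in at least one series, as had 75.8% of all genes in the longest of 10 length classes.

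**Figure D2:**
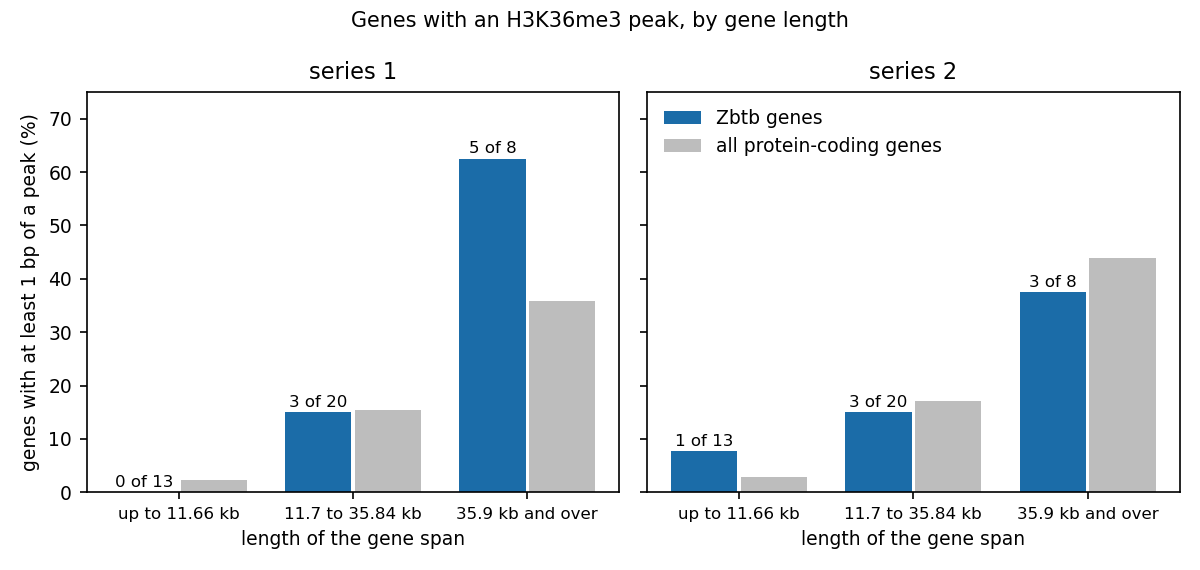
Percent of genes whose span meets a peak (y axis) in 3 groups of gene length (x axis), for Zbtb genes (blue, left bars, with counts) and all protein-coding genes (grey), in series 1 and series 2. Both rise with length; among the longest genes Zbtb genes stand at 62.5% against 35.9% in series 1 and at 37.5% against 43.9% in series 2.

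Per length of DNA the family again lay near all protein-coding genes in series 1 and below them in series 2. Zbtb genes held 11 peaks in series 1, or 5.21 per Mb of span, against 4.98 per Mb in all protein-coding genes. In series 2 they held 7 peaks, or 3.31 per Mb, against 6.19 per Mb. Zbtb20 alone makes up 35.9% of the family's span; without it the densities were 5.91 and 4.43 per Mb in series 1 and 2. Covered bases were 3.67 per kb of span in Zbtb genes and 3.15 per kb in all genes in series 1, and 1.52 and 2.24 per kb in series 2. Among genes with a peak, the median covered share was 1.12% in Zbtb genes and 1.19% in all genes in series 1, and 0.722% and 0.635% in series 2. At least 1% of the span was covered in 4 members in series 1 (9.76%), against 9.12% of all protein-coding genes. In series 2 this held for 2 members (4.88%), against 7.1% of all. In both series it held for no member, and for all protein-coding genes that share is not given here and can be at most 7.1%.

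The series 2 peaks in Zbtb genes had a median score below that of their list, with 4 of 7 near the lowest score. The authors' score is a whole number per peak that starts at 10 in both lists, and its meaning is not stated in the files. The 11 series 1 peaks scored 13 to 50 with a median of 23, and the median of all series 1 peaks was 21. The 7 series 2 peaks scored 12 to 31 with a median of 12, against a median of 16 over all series 2 peaks. The 4 at 12, in Zbtb20, Zbtb41, Zbtb49 and Zbtb7c, share that score with 32.5% of series 2 peaks, and 1.92% scored lower. The others were Zbtb44 at 31, above 88.9% of series 2 peaks, Zbtb39 at 18, above 56.4%, and Zbtb2 at the list's median of 16. Peaks with a score of at least 20 were present in 7 members in series 1 (17.1%), against 10.9% of all protein-coding genes. In series 2 they were present in 1 member, Zbtb44 (2.44%), against 9.02% of all. With such peaks alone no member was hit in both series. The same share of all protein-coding genes is not given here and can be at most 9.02%. The cut-off of 20 lies below the median score of series 1 and above that of series 2, so it cuts the lists unequally. Widths differed between the lists as they did genome-wide, at 315 to 1383 bp in series 1 and 217 to 1067 bp in series 2. The Zbtb2 and Zbtb20 peaks of series 2 stood apart at over 1000 bp, and the other 5 were at most 229 bp wide.

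**Figure D3:**
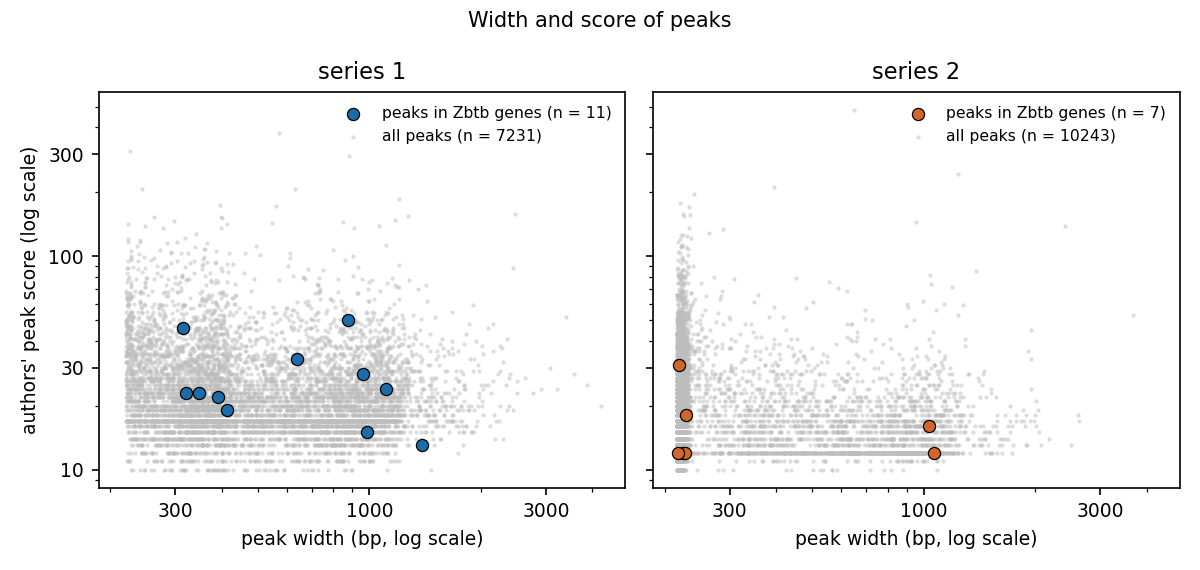
Width in bp (x axis, log scale) and authors' score (y axis, log scale) of the peaks in Zbtb genes (coloured) and of all peaks (grey) in series 1 and series 2. The 11 series 1 member peaks spread from 315 to 1383 bp. Of the 7 series 2 member peaks, 5 are 217 to 229 bp wide, near the median width of 222 bp of all series 2 peaks.

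Within the genes, the peaks touched no listed promoter window. A strand and a start were listed for 36 of the 41 members, with 49 starts in all, and Zbtb7c, Zbtb10, Zbtb16, Zbtb40 and Zbtb48 were not placed. In neither series did a peak touch any of the 49 promoter windows, which run from 250 bases before to 50 after a start. Among all protein-coding genes, 0.0517% of 21262 windows met a series 1 peak and 0.0658% a series 2 peak. The 9 series 1 member peaks came from 6 genes, with 3 in Zbtb20 and 2 in Zbtb46. Their median place was 71.0% of the way along the span from the 5′ end, against 60.7% in all protein-coding genes. For the 6 series 2 member peaks it was 44.4%, against 58.7% in all. Of the 15 member peaks, 8 (53.3%) lay beyond the middle of the span, against 60.5% of 9292 peaks in all genes. Toward the 3′ end lay the peaks of Zbtb46 at 94.6% and 97.4%, Zbtb7a at 78.0%, Zbtb44 in series 1 at 71.0% and Zbtb2 at 69.5%. Those of Zbtb46 also lie within Zgpat. Nearer the 5′ end lay those of Zbtb39 at 21.2%, Zbtb21 at 30.9%, Zbtb41 at 34.3% and Zbtb49 at 42.2%. The series 2 peak of Zbtb44 lay at 46.7% and the peak of Zbtb11 at 47.5%. Zbtb20 had peaks at 19.5%, 50.8% and 86.6% in series 1 and at 96.6% in series 2. Within 2 kb of a first listed start lay 1 of the 15 member peaks (6.67%), in Zbtb39 at 1.66 kb downstream, against 1.41% of peaks in all protein-coding genes.

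**Figure D4:**
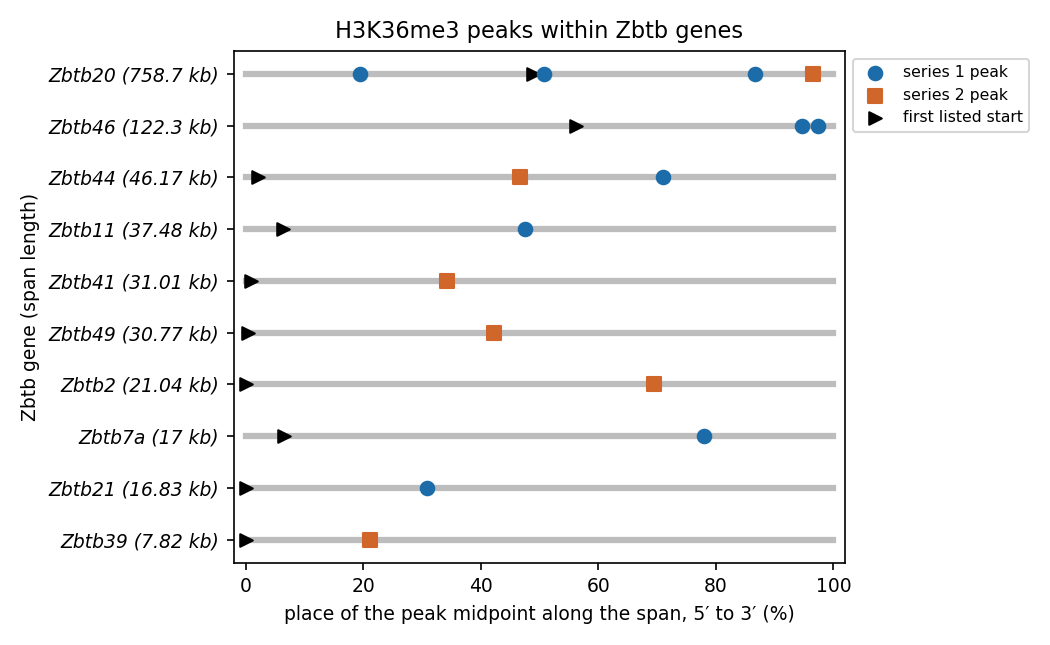
Place of each peak midpoint (circles, series 1; squares, series 2) along the span from the 5′ to the 3′ end (x axis, percent) in the 10 marked Zbtb genes with a listed strand, ordered by length; triangles mark the start listed farthest upstream. Series 1 peaks of Zbtb46, which also lie within Zgpat, sit at 94.6% and 97.4%, and the peaks of Zbtb20 spread from 19.5% to 96.6%.

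The listed start of Zbtb20 lies well inside its span, so its peaks fall on either side of it. Relative to that start the series 1 peaks lay at -223, 13.8 and 285 kb and the series 2 peak at 362 kb. In Zbtb44 the series 2 peak lay 20.6 kb and the series 1 peak 31.8 kb downstream of the start. The promoter sequences below are those of the members marked in both series and of Zbtb39, whose peak is the nearest to a start. They are RefSeq sequences on GRCm38.p6, written 5′ to 3′ on the plus strand, which is that of each gene, and capitals mark each CG dinucleotide, the site of DNA methylation in mammals. The windows are chr16:43247034-43247333 for Zbtb20, chr9:31030394-31030693 for Zbtb44 and chr10:127739280-127739579 for Zbtb39.
Zbtb20: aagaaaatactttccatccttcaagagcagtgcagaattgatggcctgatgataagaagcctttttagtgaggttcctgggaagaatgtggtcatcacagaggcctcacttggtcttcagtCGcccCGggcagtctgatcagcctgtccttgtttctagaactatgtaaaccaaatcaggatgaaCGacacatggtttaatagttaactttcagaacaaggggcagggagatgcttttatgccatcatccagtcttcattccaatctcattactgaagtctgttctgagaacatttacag
Zbtb44: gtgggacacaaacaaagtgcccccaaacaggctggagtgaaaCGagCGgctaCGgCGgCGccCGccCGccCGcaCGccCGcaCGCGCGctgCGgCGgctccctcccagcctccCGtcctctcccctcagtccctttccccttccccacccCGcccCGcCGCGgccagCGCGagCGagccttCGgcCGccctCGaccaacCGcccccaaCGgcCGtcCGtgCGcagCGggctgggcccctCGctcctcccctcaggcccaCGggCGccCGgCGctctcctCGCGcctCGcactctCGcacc
Zbtb39: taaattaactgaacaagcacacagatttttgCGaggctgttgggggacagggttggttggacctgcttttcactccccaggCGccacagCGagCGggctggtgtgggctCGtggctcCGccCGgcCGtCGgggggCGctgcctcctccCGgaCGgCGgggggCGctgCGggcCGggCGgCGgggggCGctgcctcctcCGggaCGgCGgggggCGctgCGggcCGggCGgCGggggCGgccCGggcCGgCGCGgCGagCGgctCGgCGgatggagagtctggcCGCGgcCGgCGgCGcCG

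The listed promoter windows of the members marked in both series differed. That of Zbtb20, well inside its span, holds 3 CG dinucleotides and 43.3% G and C. The Zbtb44 window, near the 5′ end of its span, holds 41 and 76.3%. The Zbtb39 window holds 42 and 77.0%. The family's promoters held more CG dinucleotides than those of protein-coding genes at large. Over the start listed farthest upstream of each of 36 members, the median was 25.5 CG dinucleotides in 300 bases and 65.7% G and C, against 13 and 56.3% over 17491 protein-coding genes. Of these 36, the 10 with a peak in either series had a median of 33 CG dinucleotides and the 26 without one 23.5. Their ranges of 1 to 45 and 8 to 51 overlap. Zbtb46 had the fewest, with 1, in a window that, as in Zbtb20, lies well inside the span. Zbtb18, a repressor known from neuronal development, had the most, with 51. The GC box GGGCGG, read on both strands, was found in 25 of 36 member promoters (69.4%) and in 46.3% of all. The E-box CACGTG was found in 5 (13.9%), against 7.91% of all. The site TCCTGCNA of Kaiso, the protein of Zbtb33, was found in Zbtb37 alone (2.78%), against 4.69% of all. The site TCTCGCGA, also bound by Kaiso, was found in Zbtb42 alone (2.78%), against 1.53%. None of these motifs contains another, and a match describes letters and not binding.

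**Figure D5:**
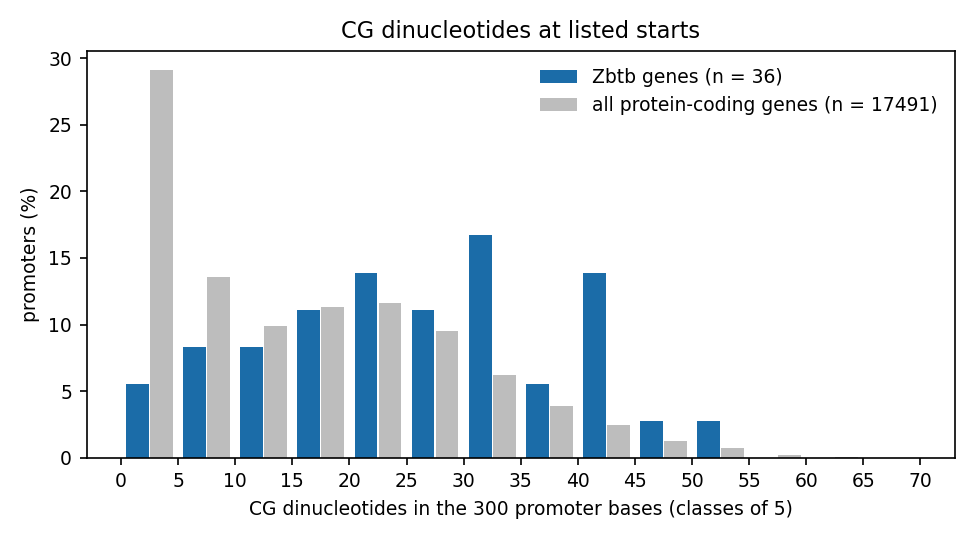
Percent of promoters (y axis) by the number of CG dinucleotides in 300 bases around the start listed farthest upstream (x axis, classes of 5), for 36 Zbtb genes (blue, left bars) and 17491 protein-coding genes (grey). Fewer than 5 were found in 5.56% of Zbtb promoters and in 29.1% of all.

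The 28 members without a peak in either series had a median length of 14.8 kb, against 17.17 kb over all protein-coding genes. They lay at varied distances from the nearest peak. That distance had a median of 28.8 kb and ran from 4.31 kb at Zbtb17, which encodes the Myc partner Miz-1, to 207 kb at Zbtb9. The longest of them were Zbtb40 (69.09 kb), Zbtb38 (48.91 kb) and Zbtb37 (31.94 kb), with a peak 18.3, 5.89 and 9.43 kb away. Zbtb33 (Kaiso), Zbtb4 and Zbtb38, whose proteins can bind methylated CG, are among these 28, where most members stand. Zbtb24, mutated in a human immunodeficiency with centromeric instability and loss of DNA methylation, lay 63.5 kb from the nearest peak. Apart from Zbtb1 and Zbtb7b, the rest are Zbtb3, Zbtb5, Zbtb6, Zbtb8a, Zbtb8b, Zbtb8os, Zbtb12, Zbtb14, Zbtb18, Zbtb22, Zbtb25, Zbtb26, Zbtb32, Zbtb34, Zbtb42, Zbtb43, Zbtb45 and Zbtb48. Zbtb8os meets the symbol rule but encodes archease, a cofactor of the tRNA ligase complex, and not a zinc finger protein. Of 41 members, 10 overlap another coding gene, among them the neighbours Zbtb1 and Zbtb25.

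Other genes with the same domains and genes of partner proteins were counted in the same way. Of 8 further BTB zinc finger genes, series 1 marked 3 (37.5%) and series 2 marked 1 (12.5%). The shares of all protein-coding genes were 16.3% and 19.5%. Bcl6, the germinal centre repressor, was hit in both, with 3 peaks over 11.6% of its 23.82 kb in series 1 and 1 peak over 0.907% in series 2. Mynn (5.25%) and Zfp131 (3.08%) were hit in series 1 only, and Bcl6b, Gzf1, Hic1, Hic2 and Patz1 in neither. Of 20 genes of corepressors and other partners, series 1 marked 12 (60%), series 2 marked 10 (50%) and both marked 8 (40%). All protein-coding genes stood at 16.3%, 19.5% and 8.42% in these counts, and those of 35.9 kb and over at 35.9%, 43.9% and 21.9%. Some partner genes are shorter than that, among them Myc (5.021 kb) and Trim28 (6.881 kb). Zbtb genes have a median length of 18.3 kb, and these partner genes one of 48.29 kb. Ncor1, the corepressor bound by BTB domains, had 7 peaks over 3.0% of its span in series 1 and 2 over 0.517% in series 2. Ctnnd1, the p120 catenin that binds Kaiso, had 4 peaks over 5.53% and 2 over 1.37%. Cdca7 and Hells, which share the human immunodeficiency of ZBTB24, were hit in series 1 only, over 5.82% and 5.67% of their spans. Zbtb24 itself and Dnmt3b, another of the 20 partner genes, had no peak in either series. No test compared these lists with the Zbtb genes.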

How the data were processed

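H3K36me3 ChIP and input libraries of mTEClo were sequenced, and the deposited files analysed are 2 broad-peak lists, 1 per ChIP library. The submitters' processing notes name Bowtie2, SAMtools, MACS2 and the build mm10 and, as far as given here, no version or setting. The names of the peaks in the files point to filtered, sorted alignments, with 2 inputs used for series 1 and 1 for series 2; ChIP libraries were not pooled. The authors deposited a whole-number score per peak, not normalized between lists, which was used to rank and filter within a list. The same cut-offs were applied to both lists, and counts in both or either series combine the filtered lists. Depth is unknown.

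Gene spans came from a RefSeq table on GRCm38.p6 (the same chromosomes as mm10), and starts, strands and promoter sequences from a RefSeq promoter table on that build. A gene was hit when at least 1 bp of its span lay under a peak; overlapping genes each count a peak. Covered share is the percent of the span under peaks. Genes of chromosomes 1 to 19, X and Y were divided into 10 length classes. No list test and no replicate test was made. Members, lists and alternatives were chosen with earlier results of these data known. The lists are 8 further BTB zinc finger genes, 20 partner genes, Zfp genes, Klhl, Kbtbd and Btbd genes, and cell type markers. Described in full are members hit in both series, the 6 best covered and 3 highest scored of each series, fixed members, and the 3 longest unmarked ones. Values of Zbtb4, Zbtb7c, Zbtb9, Zbtb18, Zbtb37 and Zbtb42 promoters, Cdca7, Dnmt3b, Hells, Mynn and Zfp131 were chosen for naming after they were seen. Alternatives changed the lowest score, the share to be covered, the region, peak width, overlapping genes, the members and the libraries. Overlap counting was tested on simulated data. Python 3.11.15, numpy 2.4.6, pandas 2.3.3 and matplotlib 3.10.9 were used.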

Additional observations from a re-analysis of the deposited data

How the results depend on the processing

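The counts moved with the lowest score and the share to be covered. Score cut-offs were the same for both lists, though scores are not normalized between them. With a score of at least 20, the count was 1 in series 2, 0 in both and 8 in either. The series 2 share of all protein-coding genes at that score was 9.02%. With at least 50 the count was 1 in series 1 (Zbtb11), 0 in series 2, 0 in both and 1 in either. With at least 1% of the span it was 4 in series 1, 2 in series 2, 0 in both and 6 in either, and with at least 10% it was 0 in each of the 4. At 1%, the shares of all protein-coding genes were 9.12% in series 1 and 7.1% in series 2. Among the 31 members that overlap no other coding gene it was 4 in series 1, 1 in both (Zbtb44) and 8 in either. With peaks over 10 bp wider than the narrowest of their list it was 4 in series 2 and 1 in both (Zbtb20). For the other cut-offs and filters, and for counts in both or either, no share of all protein-coding genes is given. Whether the member counts fall further than those of all genes was not tested. With 1 library left out, only the other list's own count remained, 7 (without series 1) or 8 (without series 2). Counts in both and in either have no separate meaning with 1 list. These values were fixed in advance and show nothing about how stable the counts are. The median covered share became 2.34% in series 1 with a score of at least 50, from 1 gene, and 1.83% in series 2 with the wider peaks; with a score of at least 50 series 2 gave no value. The other 27 of 53 recomputed values stayed within 1.5 times the count, or within 0.279 percentage points of the median, the SD between the series. They include leaving out Zbtb8os, which was chosen after seeing the data. No paired analysis was possible because each series has 1 peak list and no test was made over libraries. Unknown depth limits what the absence of a peak can show.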

Other observations

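Families that share a domain with the Zbtb genes gave shares on both sides of theirs. Series 1 marked 19.5% of Zbtb genes and 19.6% of 397 genes with a Zfp symbol, most of which encode C2H2 zinc finger proteins without a BTB domain. Series 2 marked 17.1% of Zbtb genes and 20.2% of Zfp genes. The median lengths were 18.3 kb for Zbtb genes and 18.01 kb for Zfp genes. Among genes with a peak, the median covered share in series 1 was 1.12% in Zbtb genes, 2.59% in Zfp genes and 1.19% in all protein-coding genes. In series 2 it was 0.722% in Zbtb genes, 1.25% in Zfp genes and 0.635% in all. Of 88 Klhl, Kbtbd and Btbd genes, whose proteins pair a BTB domain with Kelch or other domains, series 1 marked 10.2% and series 2 marked 17.0%, at a median length of 11.29 kb. No test compared these families.

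The distance from a peak to the nearest peak of the other list had a median of 71.1 kb over the 18 peaks in Zbtb genes and 43.3 kb over 11546 peaks in all protein-coding genes. Over the member peaks it ran from 10.9 kb in Zbtb44 to 499 kb for the series 2 peak in Zbtb49. The median was 65.6 kb in Zbtb genes and 33.3 kb in all genes for series 1 peaks, and 74.9 kb and 55.5 kb for series 2 peaks. No test compared them.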
